A study of Arabidopsis thaliana with 2 samples.

Results

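The array annotation names many Arabidopsis genes only by locus number. In dark-grown seedlings given 1 h of red light, 38 such genes lay 3-fold or more below their level in seedlings kept dark. They were chosen from 22810 probe sets by these conditions: the probe set is no control, the array annotation maps it to 1 gene, that gene is named only by its locus, and the linear signal is at least 200 in the dark with dark over red light of at least 3. These 38 probe sets, 1 for each of 38 genes, are among 11933 locus-named probe sets, of which 4918 reached the limit on the dark signal. The same 2 signals chose the members and are described here, so the size of the difference is a description and is not tested.

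Whole seedlings of the Landsberg erecta ecotype were compared. Seeds of both groups were kept cold and dark for 2 days, exposed to white light for 2 h and grown for 7 days in darkness at 23 °C. The red light group then received 1 h of red light with a transmission maximum of 630 nm at about 10 µmol per square metre and second, and the dark group stayed in darkness for the same hour. Each group is a single pool of 5 seedlings on 1 array. There is no replicate, no error across samples and no p-value, and precision is limited by the small number of arrays. The labels differ on the sucrose content of the medium, and it is not given here. In such whole-seedling samples fewer cells of a type and less RNA per cell cannot be told apart, and neither can red light and any other difference between the pools.

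Seedlings grown in darkness elongate the hypocotyl, keep the apical hook closed and live on seed reserves until light reaches them. Red light is sensed by phytochromes, which on activation lead to the loss of phytochrome-interacting factors (PIFs), bHLH transcription factors that promote growth in the dark partly through auxin and cell wall genes. The array annotation gives the genes described here no name but the locus, and neither it nor the gene table used holds a description of them. The families given are background knowledge of each locus, mostly from sequence similarity, and no family is given for 8 of the 38.

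Signals are linear MAS5 intensities, a summary of the probes of each probe set. The median signal of an array was 203.45 for red light and 190.95 for dark. The highest of 27 probe sets for bacterial transcripts, a measure of background, reached 20.5 after red light and 11.5 in the dark. The 18 hybridization controls, bacterial and phage transcripts that are normally added in equal amounts, had a median log2 ratio of -0.30, and 17 of them were lower on the red light array. Genes counted as measured, where lists are described, had a mean log2 signal at or above that of a signal of 102, which 7281 genes reached. Of those, 2.44% lay at least 2-fold below the dark value after red light and 4.82% at least 2-fold above it.

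The share of locus-named probe sets that met the limits was 0.773% of 4918. Among probe sets of genes with another symbol it was 1.7%, or 16 of 942, and among unlisted probe sets, which the annotation does not name here, 1.15%, or 59 of 5115. Among probe sets that name several genes it was 0.873%, and over all non-control probe sets with that dark signal 1.03%. The median log2 ratio of the 4918 was -0.05 and their SD among probe sets was 0.53. For comparison, 81 of 5052 locus-named probe sets with a red light signal of at least 200 were at least 3-fold higher, 1.6%.

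**Figure D1:**
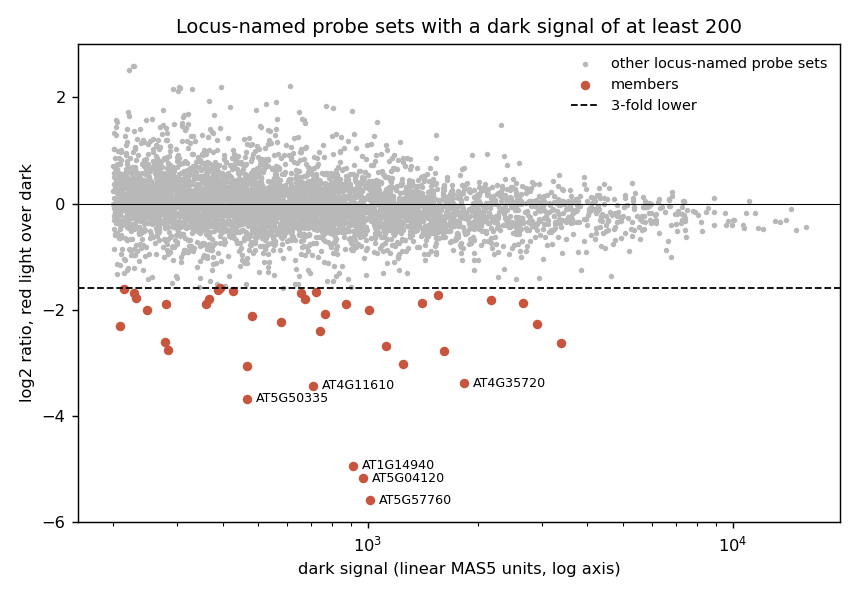
Log2 ratio of red light over dark against the dark signal (log axis) for the 4918 locus-named probe sets with a dark signal of at least 200. The 38 members are in red below the dashed 3-fold line, and 3 of them lie apart near a log2 ratio of -5.

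The members' signals ran from 208.8 to 3384.3 in the dark, with a median of 689.5, and from 20.9 to 720.7 after red light, with a median of 127.9. The signal left after red light ranged from 2.06% to 33.0% of the dark signal, with a median of 24.2%. Of the 38 genes, 3 were more than 30-fold lower, 3 between 10- and 30-fold, 8 between 5- and 10-fold, 7 between 4- and 5-fold and 17 between 3- and 4-fold. All 38 red light signals were above the highest bacterial probe set of that array, 4 of them by no more than a factor of 2. The Spearman correlation across the 38 genes between dark signal and fold was 0.33, a description in which both quantities share the dark signal.

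**Figure D2:**
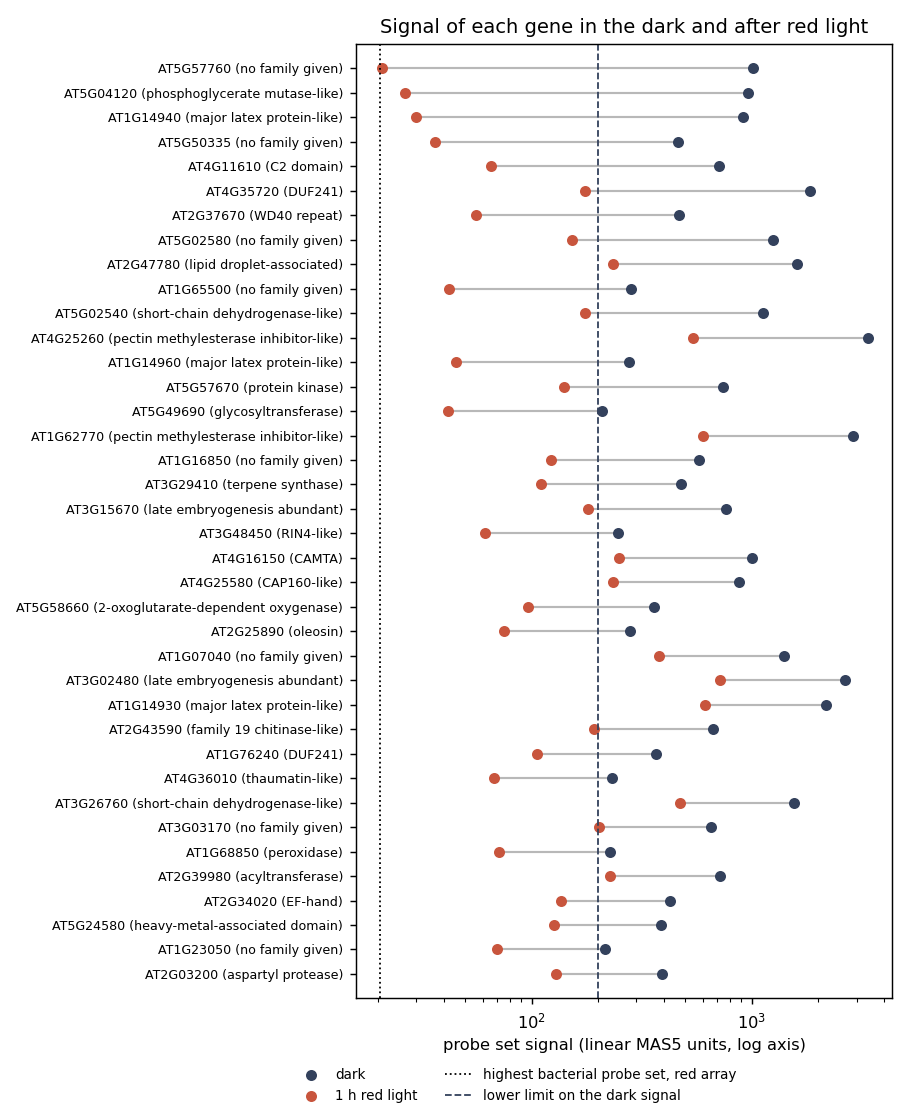
Signal of each of the 38 genes in the dark (dark blue) and after red light (red), on a log axis of linear MAS5 units, in order of fold with the family in brackets. The dotted line is the highest bacterial probe set on the red light array, 20.5, next to the red light signal of AT5G57760 at 20.9, and the dashed line is the dark limit of 200.

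The widest differences were in 3 genes that had a clear signal in the dark and almost none after red light. AT5G57760 had a signal of 1012.2 in the dark and 20.9 after red light, 48.4-fold lower. AT5G04120, which belongs to the phosphoglycerate mutase-like family of phosphate-transferring and phosphatase enzymes, had 968 and 26.7, 36.3-fold lower. AT1G14940, of the major latex protein-like family of small lipid- or hormone-binding proteins, had 912.1 and 29.7, 30.7-fold lower. Their red light signals lay between 1.02 and 1.45 times the highest background, so these folds are poorly bounded. A pseudocount of 21.9 on both arrays brought them to 24.2-fold, 20.4-fold and 18.1-fold.

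AT5G50335 had 465.1 in the dark and 36.3 after red light, 12.8-fold lower, and 8.37-fold with the pseudocount. AT4G11610 encodes a protein with several C2 domains, which bind calcium and membrane lipids, and had 707.9 and 65.4, 10.8-fold lower. AT4G35720, of the plant-specific DUF241 family of unknown function, had 1835.1 and 175.6, 10.5-fold lower. Unlike the other 5 genes beyond 10-fold, it kept a red light signal 8.57 times the highest background, so its fold does not rest on a signal near background.

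Major latex protein-like genes formed a group on chromosome 1, where 4 consecutive protein-coding genes of the gene table belong to this family. Besides AT1G14940, AT1G14930 had 2180.2 in the dark and 617.5 after red light, 3.53-fold lower. AT1G14960 had 277.2 and 45.4, 6.11-fold lower. The fourth gene, AT1G14950, had 517.3 and 270.3, 1.91-fold lower and thus outside the limits. All 4 neighbours were lower, with folds that differ widely between them, and whether probes of these similar genes bind each other's transcripts was not tested.

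Relatives of this family elsewhere in the genome were within 2-fold where they counted as measured. They were collected after the members had been seen. Of 26 family genes written down, 15 had a probe set naming them alone and 10 were measured. These were the 3 members and 7 others, of which none was 2-fold apart in either direction as deposited. AT1G14950 passed 2-fold lower with median centring and quantile normalization. AT4G23670 had signals of 7314.8 in the dark and 7546.1 after red light, and AT4G23680 had 3536.5 and 3647.7. AT1G23120 had 1066.2 and 1135.6, and AT3G26450 had 1371.2 and 1861.2. The 7 others had log2 ratios from -0.94, in AT1G14950, to 0.50, with a median of 0.04, against a median of 0.00 over all measured genes. Of the relatives too dim in the dark to count as measured, AT1G23130 had 21.6 in the dark and 153.3 after red light, and AT1G70870 had 11.3 and 96.2. Both were higher after red light, from dark signals near background.

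Genes acting in the cell wall or outside the cell made up 6 members. Pectin methylesterase inhibitors restrain the enzymes that remove methyl groups from wall pectin, a step that affects wall stiffness in growing cells. AT4G25260, of this family, had a signal of 3384.3 in the dark and 544.5 after red light, 6.22-fold lower. AT1G62770, of the same family, had 2901.5 and 600.6, 4.83-fold lower. Both kept red light signals more than 20 times the highest background, 26.6 times for AT4G25260 and 29.3 times for AT1G62770.

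Each of these inhibitor genes has another of the family next to it, and both neighbours were dim. AT4G25250, beside AT4G25260, had 102.7 and 36.1, a log2 ratio of -1.51. AT1G62760, beside AT1G62770, had 82 and 11.7 in 1 probe set and 18.3 and 11.1 in another, all but the first near or under the highest background. Neither counted as measured. Of 20 inhibitor-like genes written down after the members were seen, 14 had a probe set naming them alone and 7 were measured. The 5 that are not members had log2 ratios from -0.75 to 1.35 with a median of -0.04, and 1 of them, AT5G20740, was on the other side of 2-fold, with 186.1 in the dark and 474.9 after red light.

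The other 4 of the 6 were between 3.03- and 3.48-fold lower. AT2G43590, a chitinase family gene, had 671.1 in the dark and 193 after red light, 3.48-fold lower. AT4G36010, of the thaumatin-like proteins known from pathogen defence, had 231.5 and 67.5, 3.43-fold lower. AT1G68850, a class III peroxidase of the kind that acts on wall phenolics, had 228.2 and 70.9, 3.22-fold lower. AT2G03200, an aspartyl protease family gene, had 393.3 and 129.7, 3.03-fold lower, the smallest fold of all members. Close relatives of the chitinase gene lay on either side of 0. AT2G43610 had 628.5 and 1481.5, 2.36-fold higher, and AT2G43620 had 985.6 and 533.8, a log2 ratio of -0.88.

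A further 5 members belong to families of lipid droplets, seed maturation or water loss. Lipid droplets hold the oil that feeds a dark-grown seedling, oleosins coat them in seeds, and late embryogenesis abundant proteins protect cells as they dry. AT2G47780, of a family of lipid droplet-associated proteins related to rubber elongation factor, had 1614.3 in the dark and 235.7 after red light, 6.85-fold lower. Both its measured relatives were within 2-fold, AT3G05500, whose ratio changed sign with hybridization control centring, at 1785.4 and 1475.8 and AT1G67360 at 216.7 and 334.3. AT2G25890, an oleosin family gene, had 278.9 and 74.8, 3.73-fold lower.

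AT3G15670, a late embryogenesis abundant gene, had 765.3 in the dark and 180 after red light, 4.25-fold lower. AT3G02480, another of that broad class, had 2654.2 and 720.7, 3.68-fold lower. AT4G25580, a CAP160-like gene of a type known from cold and drought, had 873.5 and 233.5, 3.74-fold lower. The list of markers for seed storage, oil bodies and late embryos holds AT3G15670 and was written with earlier results of these data known. Of its 27 genes, 10 were measured. Of these 4 were at least 2-fold lower and 0 at least 2-fold higher, against 2.44% and 4.82% of all measured genes. The list's median log2 ratio was -0.83. Over the 9 that are not members it was -0.71, and 3 of the 9 were at least 2-fold lower. OLEO3, an oleosin gene with its own symbol, had 1276.9 and 319.9, 3.99-fold lower, and AT3G17520 had 695.6 and 279.5, 2.49-fold lower. AtLEA4-1 had 702.7 and 325.4, and came under 2-fold with hybridization control centring, where 3 of the 10 stayed lower. AT3G54940, at 251.8 and 130.3, joined the lower genes with median centring, loess and quantile normalization. On the other side M17, a late-embryo gene, had 4548.3 and 5076.8, and AT2G28490 had 455.5 and 579.3. With a stricter filter at the 60th percentile of signal the list's median was -1.21. The summed signal of the 13 markers with a probe set was 9541 in the dark and 7467 after red light, with none at 0. Without the member AT3G15670, which is lower by the choice, the sum was 8775.7 and 7287. Without M17, which holds much of both sums and was higher after red light, it was 4992.7 and 2390.2, with AT3G15670 still in it. The part of these summed markers in the results for these 5 genes was not tested.

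Metabolic enzymes made up 7 members, AT5G04120 among them. AT5G02540, of the short-chain dehydrogenase-like family, had 1121.6 in the dark and 174.3 after red light, 6.43-fold lower. AT3G26760, of the same broad family, had 1560.8 and 472.4, 3.30-fold lower. Its neighbour AT3G26770 was within 2-fold, at 531.6 and 276.5.

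AT5G49690, a UDP-dependent glycosyltransferase family gene, had 208.8 in the dark and 41.9 after red light, 4.98-fold lower. It was the 1 member that did not count as measured under the filter on mean signal. AT3G29410, of the terpene synthase family, had 480 and 110.8, 4.33-fold lower. AT5G58660, a 2-oxoglutarate-dependent oxygenase family gene, had 359.1 and 96.2, 3.73-fold lower. AT2G39980, an acyltransferase family gene, had 721.7 and 226.9, 3.18-fold lower. These 4 enzymes belong to families that form or modify specialised metabolites or hormones, and the substrate of none of them is given here.

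A further 7 members, AT4G11610 among them, were grouped under regulation and signalling by their family or domain, and such a role was not tested. AT4G16150 belongs to the calmodulin-binding transcription activators (CAMTAs), which couple calcium signals to transcription, and had 1005.4 in the dark and 250.1 after red light, 4.02-fold lower. The 2 other measured CAMTA genes were within 2-fold, AT3G16940 at 877.8 and 686.3 and AT1G67310 at 284.5 and 318.4. AT2G37670, a WD40 repeat gene, had 467.4 and 56.2, 8.32-fold lower.

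AT5G57670, a protein kinase family gene, had 740.1 in the dark and 139.8 after red light in the probe set that made it a member, 5.29-fold lower. It is also the member gene with another probe set, which had signals of 14.4 and 7.8, both close to background, so that probe set gives no usable second value. AT3G48450, of the RIN4-like family named after a regulator of plant immunity, had 247.9 and 61.6, 4.02-fold lower. AT2G34020, an EF-hand calcium-binding family gene, had 426.2 and 136, 3.13-fold lower. AT5G24580, with a heavy-metal-associated domain, had 389.3 and 126.1, 3.09-fold lower.

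The remaining 10 members are of unknown function or have no family given here, AT5G57760, AT5G50335 and AT4G35720 among them. AT5G02580 had 1250.2 in the dark and 153.5 after red light, 8.14-fold lower. This gene was on the list of shade-avoidance and PIF-raised genes, which was written with earlier results of these data known. It lies near AT5G02540 on chromosome 5, with 3 protein-coding genes between them. Of these, AT5G02550 had 911.2 and 493.2 and was within 2-fold. The immediate neighbour of AT5G02580 on the other side, AT5G02590, had 302.2 and 414.5.

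AT1G65500 had 283.2 in the dark and 42 after red light, 6.74-fold lower. AT1G16850 had 578.1 and 122.3, 4.73-fold lower. AT1G07040 had 1404.5 and 380.3, 3.69-fold lower. AT1G76240, another DUF241 gene, differed less than AT4G35720, with 366.8 and 105.6, 3.47-fold lower. AT3G03170 had 655 and 202.8, 3.23-fold lower. AT1G23050 had 214.8 and 70, 3.07-fold lower, and was close to both limits.

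**Figure D3:**
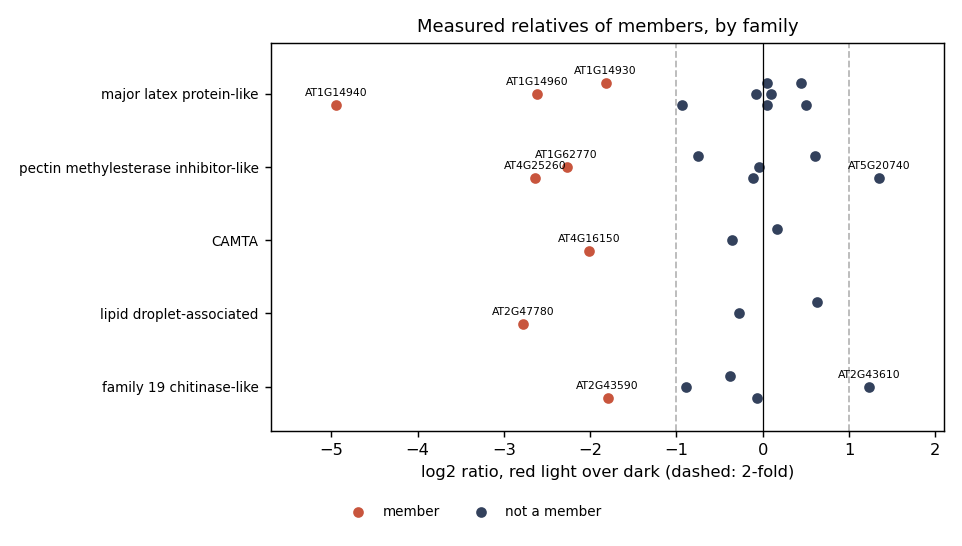
Log2 ratio of red light over dark for measured genes of 5 families that hold members, 1 point per gene, with members in red and relatives in dark blue. In each family the relatives lie between -0.94 and 1.35, and the dashed lines mark 2-fold.

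Across the genome the members were spread over all 5 chromosomes, with 10, 7, 6, 6 and 9 on chromosomes 1 to 5. Of the 4918 locus-named probe sets with the same dark signal, 26.4%, 14.3%, 20.8%, 13.9% and 24.7% were on these chromosomes. Of 29 cases of a measured gene directly beside a member, 2 were at least 2-fold lower, 6.90%, against 2.58% beside locus-named genes with that dark signal. These 2 cases are 1 pair, AT1G14930 and AT1G14940, counted from either side. Both are members chosen by this same ratio, so the 6.90% follows from the choice and is no result. No measured direct neighbour that is not itself a member was 2-fold lower as deposited.

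Growth and auxin genes were described from lists of loci, since no member other than AT5G02580 and AT3G15670 stood on any of the 7 lists. All 7 lists were written with earlier results of these data known, so their counts are descriptions. Auxin raises many Aux/IAA repressor genes and GH3 genes within minutes to hours, and some GH3 enzymes join auxin to amino acids. Of 36 Aux/IAA and GH3 genes written, 10 had a probe set naming them alone and 6 were measured. Of the 6, 4 were at least 2-fold lower and 0 at least 2-fold higher, against 2.44% and 4.82% of all measured genes. The list's median log2 ratio was -1.59. IAA29 had 1227.7 in the dark and 219.2 after red light, WES1 had 1875.6 and 484.8, and IAA20 had 572.4 and 182. GH3.3 had 1188 and 411.7. The remaining measured genes were within 2-fold, IAA18 higher after red light at 479.3 and 669.8 and GH3.17 lower at 941 and 667.8. The median was -0.54 over the 10 genes with a probe set when dim ones were kept.

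SAUR genes, small auxin-induced genes that promote cell expansion, could not be described. Of 74 written, 3 had a probe set naming them alone, and none counted as measured. AT3G53250 had 54.7 in the dark and 100.1 after red light, AT1G43040 had 25.3 and 11, and AT2G18010 had 49.1 and 35.2. The other 71 are not analysed here.

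On the shade-avoidance and PIF-raised list 6 of 25 genes had a probe set naming them alone, and 5 were measured. Of these 3 were at least 2-fold lower and 0 at least 2-fold higher, against 2.44% and 4.82% of all measured genes. The list's median was -1.10. AT5G02580, 1 of the 3, is a member and so is lower by the choice. The others of the 3 were IAA29 and HAT2. HAT2, a homeodomain gene of auxin and shade responses, had 1680.5 in the dark and 785.9 after red light. XTH33, a cell wall enzyme gene, had 830.4 and 566.3. Without the member 2 of the 4 other genes were at least 2-fold lower, and the median of the 4 was -0.82. HAT2 was under 2-fold with hybridization control centring, at a log2 ratio of -0.80, and the list's median was -1.79 with the filter at the 60th percentile.

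Expansins and xyloglucan endotransglucosylases loosen or remodel the wall of growing cells. Of 41 written, 20 had a probe set naming them alone and 16 were measured. Of the 16, 4 were at least 2-fold lower and 1 at least 2-fold higher, against 2.44% and 4.82% of all measured genes. The list's median was -0.57. EXPA9 had 437 in the dark and 104.3 after red light, 4.19-fold lower, while XTH32 had 903.5 and 2265.6, 2.51-fold higher. The other 3 lower genes lay at the edge of 2-fold. XTH19 had 2207.8 and 1088.1, XTH18 had 3864.8 and 1917.3, and EXPA8 had 1029.7 and 513.7. With hybridization control centring all 3 came under 2-fold, which left EXPA9 as the 1 lower gene and XTH32 as the 1 higher gene, and the list's median was -0.27. XTH18 and XTH19 were also under 2-fold with loess, XTH18 with quantile normalization and EXPA8 with the pseudocount. EXPB1 and EXLA3 joined the lower genes with median centring, loess and quantile normalization, where the lower genes numbered 6, 4 and 5.

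Of 25 dark-inducible and sugar-starvation genes 5 had a probe set naming them alone, and all 5 were measured. The list's median was -1.10. Of the 5, 3 were at least 2-fold lower and 0 at least 2-fold higher, against 2.44% and 4.82% of all measured genes. The 3 were MCCA, with 5472.9 in the dark and 2365.9 after red light, IVD, with 4526.2 and 1979.8, and MCCB, with 6464.7 and 3020. All act in the breakdown of leucine. AKINBETA1, at 2408.2 and 1746.2, and AT1G21790, at 265.2 and 257.6, were within 2-fold. None of the 3 was 2-fold lower with hybridization control centring, where the median was -0.80, and MCCB was not with loess or quantile normalization. Root and root hair markers had 3 of 11 genes measured, none of them 2-fold apart, with a median of -0.33. With dim probe sets kept the median over 6 was -1.05. The dim ones were EXPA7 at 26.4 and 8.8, EXPA18 at 52.3 and 13.5, and AT3G49960 at 18.2 and 1.4, all under the highest background after red light. Of the measured ones PYK10, a root beta-glucosidase gene, had 9763.7 and 7781.1, AT5G44020 had 7021.1 and 4914.1, and AT1G66800 had 507.7 and 642.6. The summed signal over the 6 root markers with a probe set was 17389.4 in the dark and 13361.5 after red light, with none at 0, and its part in the results was not tested.

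**Figure D4:**
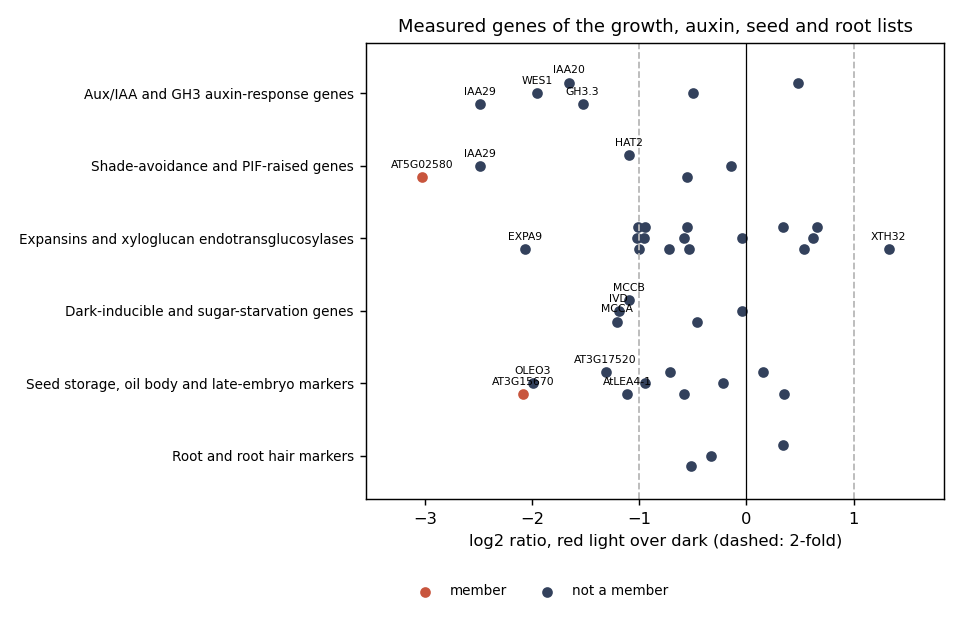
Log2 ratio of red light over dark for measured genes of the 6 lists with any measured gene, 1 point per gene, with the members AT5G02580 and AT3G15670 in red. Dashed lines mark 2-fold, and IAA29 stands on both the auxin and the shade list.

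The limits of the choice fell within a continuous range of values. Just inside the fold limit, beside AT2G03200 and AT1G23050, lay AT5G24580 at 3.09-fold. Just outside were AT5G60760, with 583.7 in the dark and 194.6 after red light, AT5G66590, with 896.9 and 300.2, and AT1G53770, with 343.8 and 115.8. Just under the dark limit were AT3G50400 at 196.2 and 61.9, AT2G47020 at 187.9 and 56.8, and AT5G48740 at 186.4 and 41.1.

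How many members kept a 3-fold difference varied with the scale of the arrays. All 38 kept it with median centring, loess and quantile normalization, and 31 with the pseudocount. Median centring lowers every ratio by the same amount, so it could not take a member under 3-fold. With the hybridization controls set to 0 instead, each ratio rose by 0.30 on the log2 scale, and 24 members stayed at 3-fold. The other 14, from AT1G07040 at 3.69-fold downwards, came under it, the lowest at 2.46-fold. The 7 that the pseudocount took under 3-fold, AT4G36010, AT1G68850, AT2G39980, AT2G34020, AT5G24580, AT1G23050 and AT2G03200, are among those 14. The median log2 ratio of the members was -2.05 as deposited and lay between -2.15 and -1.75 under these 5 settings.

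**Figure D5:**
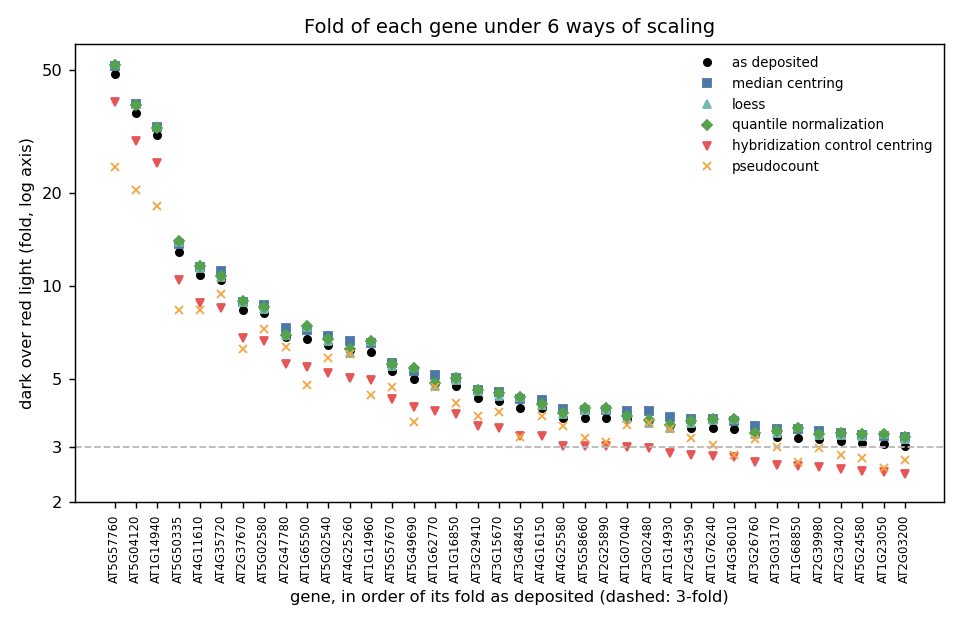
Fold of dark over red light (log axis) for each of the 38 genes in order of its fold as deposited, under 6 ways of scaling. The pseudocount lowers the first 4 folds most, and centring on the hybridization controls takes the last 14 genes under the dashed 3-fold line.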

How the data were processed

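The values are linear intensity values per probe set, deposited by the authors; the submitters' processing notes name MAS5, version 5. The scaling target is not given in the sources used here. Their mean without the lowest and highest 2% was 499.7 on the red light array and 499.4 in the dark, so no further scaling was applied. RNA (20 ng) was amplified and biotin-labelled, per the labels' protocols. Log2 ratios, red light over dark, were computed per probe set, with signals under 0.1 set to 0.1. For lists, probe sets of a gene were averaged, and genes counted as measured from the 40th percentile of mean log2 signal. The rule that chose the members was tested on simulated data with planted falls well beyond 3-fold, so genes near that limit were not covered. Python 3.11.15, numpy 2.4.6, pandas 2.3.3 and statsmodels 0.14.6 were used.

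Members, lists and alternatives were chosen with earlier results of these data known. Every member is named. In the lists, genes at least 2-fold apart were to be named, and up to 3 measured genes with the largest absolute ratio; others named were chosen after their values were seen. Symbols and gene order come from a table of the TAIR10.1 assembly, which lists all 38 members. Coordinates are left out because the values come with no build. The tables hold no gene descriptions, so families come from general knowledge instead, which departs from the plan. Promoter motifs were planned and are not analysed here.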

Additional observations from a re-analysis of the deposited data

How the results depend on the processing

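No paired analysis was possible because 1 array stands for each group, and no replicate could be left out. The number of genes meeting the limits, 38, was 48 with median centring, 45 with loess, 46 with quantile normalization, 31 with the pseudocount and 23 with hybridization control centring, where the dark limit was also applied to the shifted signals. It was 54 with a dark signal of at least 100, 26 with at least 400, 128 at 2-fold and 21 at 4-fold. No member has a probe set of the kinds that can cross-hybridize by name. A value counted as moved beyond 0.31 on the log2 scale, the median difference between 38 pairs of measured probe sets of the same gene, since no replicate spread exists. When dim probe sets were kept, the median log2 ratio of the auxin list was -0.54 and that of the root list -1.05. With the filter at the 60th percentile the median of the shade list was -1.79 and that of the seed list -1.21. These filters change which genes enter. Centring on the hybridization controls turned the sign of AT1G21790 (0.26), AT1G47980 (0.085), AT4G17030 (0.26), AT5G12050 (0.16), AT3G05500 (0.026), AT3G26460 (0.23), AT3G47380 (0.26), AT3G47540 (0.24) and AT5G62350 (0.19). Median centring turned that of AT1G23120 (-0.00024), AT4G23670 (-0.046) and AT4G23680 (-0.047), which lay close to 0. No other measured gene of the lists and families, and no member, changed sign under the 5 scale settings. The depth of an array is its signal over background, which limits the 4 largest folds most. With the pseudocount 10 gene values counted as moved, all of them members. Besides those 4 they were AT4G11610 (8.36-fold), AT2G37670 (6.27-fold), AT1G65500 (4.77-fold), AT1G14960 (4.44-fold), AT5G49690 (3.62-fold) and AT3G48450 (3.23-fold).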
